A study of Mus musculus with 10 samples.

Results

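The p53 targets described here are 10 genes that p53 switches on to halt the cell cycle or to start cell death, followed in RNA sequencing of whole mouse testis. They are Cdkn1a, Mdm2, Ccng1, Bax, Bbc3, Phlda3, Eda2r, Trp53inp1, Perp and Aen, chosen by symbol as 10 of the 25239 genes in the count table. All 10 had enough reads to enter the tests, which covered 18419 genes in all. The libraries came from C57BL/6 mice at postnatal day 7 (P7) and postnatal day 4 (P4). At each stage, 3 libraries were from mice with the genotype label Lsm7-flfl-stra8, a conditional knockout of Lsm7 (cKO), and 2 were from wild-type mice (WT). Lsm7 encodes a subunit of the LSm rings, which bind U6 snRNA in the spliceosome and the ends of mRNAs in decay. Stra8 is a gene expressed in germ cells before meiosis. The labels do not say what its sequence drives in this genotype, nor whether libraries came from separate animals, and the p-values may therefore rest on technical spread alone.

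On GRCm38, the genes lie at chr17:29090979-29100722 (Cdkn1a), chr10:117688875-117710758 (Mdm2), chr11:40748552-40755286 (Ccng1), chr7:45461695-45466898 (Bax) and chr7:16309583-16318334 (Bbc3). The others lie at chr1:135766085-135769134 (Phlda3), chrX:97333841-97377209 (Eda2r), chr4:11156441-11174379 (Trp53inp1), chr10:18845071-18857072 (Perp) and chr7:78895927-78911209 (Aen). Reads were counted over their exons, whose summed lengths ran from 869 bases in Bax to 5817 bases in Eda2r, and none of the 10 overlapped another gene of the table.

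The p53 protein, encoded by Trp53 in the mouse, is a transcription factor held at low levels by the ubiquitin ligase Mdm2 and its partner Mdm4. DNA damage or disturbed ribosome production frees p53 from Mdm2, and p53 then raises the transcription of its targets. Some targets stop the cell cycle, some open the mitochondrial route to apoptosis, and some, such as Mdm2, close the loop by limiting p53 again. In the testis, p53 and its relatives are known for removing germ cells that carry unrepaired DNA breaks.

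Promoter matches to the p53 consensus are shown before the values, since regulation by p53 is what defines these genes. The sequences are RefSeq promoters of build GRCm38.p6, from 250 bases before to 50 bases after the transcription start, and 8 of the 10 genes (not Perp or Trp53inp1) were matched by symbol. The search was for the 10-base p53 consensus unit, which is its own reverse complement and so covers both strands. A full site was taken as 2 such units side by side, with at most 2 mismatches outside the core C and G of each unit. Of 32851 promoters in the table, 8.36% held a unit and 0.326% held a full site. A unit was found in 5 genes (Cdkn1a, Mdm2, Ccng1, Bax and Aen) and a full site in Cdkn1a and Ccng1, each with 1 mismatch. A match describes these letters and does not show that p53 bound there. The windows of Cdkn1a (chr17:29090729-29091028, plus strand) and Ccng1 (chr11:40755237-40755536, minus strand) are given whole because they hold the full sites, whose first bases lay 51 and 195 bases before the start. Capitals mark the matched bases, and Cdkn1a had a further single unit upstream of its full site. The window of a second RefSeq start of Cdkn1a held no match.
Cdkn1a: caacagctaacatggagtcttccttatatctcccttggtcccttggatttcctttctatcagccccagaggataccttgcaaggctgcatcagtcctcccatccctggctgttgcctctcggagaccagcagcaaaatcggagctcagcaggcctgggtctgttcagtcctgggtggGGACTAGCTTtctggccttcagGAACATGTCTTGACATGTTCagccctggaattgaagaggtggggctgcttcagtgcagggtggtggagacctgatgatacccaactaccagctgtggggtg
Ccng1: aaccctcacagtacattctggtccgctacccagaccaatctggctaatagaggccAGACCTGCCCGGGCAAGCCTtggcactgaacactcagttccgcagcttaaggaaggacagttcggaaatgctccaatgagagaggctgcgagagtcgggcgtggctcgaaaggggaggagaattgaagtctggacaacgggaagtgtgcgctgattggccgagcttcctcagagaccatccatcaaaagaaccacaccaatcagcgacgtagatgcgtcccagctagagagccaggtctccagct
The other 3 genes held single units, shown in capitals with 10 bases on each side. These lay in the windows chr10:117710709-117711008 (minus strand) for Mdm2, chr7:45466849-45467148 (minus strand) for Bax and chr7:78895677-78895976 (plus strand) for Aen.
Mdm2: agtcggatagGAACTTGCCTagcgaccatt
Bax: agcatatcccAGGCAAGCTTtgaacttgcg
Aen: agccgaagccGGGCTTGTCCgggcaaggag

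Each library had 28799371 to 41797353 reads counted to genes. The chi-square statistic of the 2 P7 WT libraries was 1.98 times its degrees of freedom, against 23.49 to 122.88 times for the other pairs of 1 group. This is close to sampling noise, and they were summed and counted as 1 sample. The fit gives that lone sample the spread estimated from the other groups. Lsm7 itself had 45.2, 26.0 and 20.3 CPM (read counts per gene scaled to library size with TMM factors) in cKO-labelled testes and 33.3 CPM in WT testes at P7, and 44.9, 50.5 and 43.6 CPM against 36.2 and 25.7 CPM at P4. The P7 libraries overlapped (log2 fold change -0.13, adjusted p = 0.835, edgeR), while at P4 each cKO-labelled library lay above both WT libraries (0.58, adjusted p = 0.215). Without P7 cKO replicate 1 the P4 difference passed (0.58, adjusted p = 0.0361), and Lsm7 had -1.05 under an offset for exon length and GC content at P7 (adjusted p = 0.153) and 0.12 at P4 (adjusted p = 0.734). The main values thus go against a loss of Lsm7 reads at P4 and show none beyond the spread at P7. Which exons the deletion removes is not given in the sources used here. The tissue label is testis and the cell type label is germ cell, no sorting step is described, and markers of somatic cells were plentiful: 12 Sertoli cell markers summed to 5120 to 5650 CPM in cKO-labelled and 5560 CPM in WT testes at P7, where 12 pan-germ-cell markers summed to 1280 to 1590 CPM and 2220 CPM. At P4 the Sertoli sums were 5570 to 6220 CPM against 3500 to 4520 CPM. The pan-germ-cell sums were 275 to 284 CPM against 405 to 489 CPM, with none of either list at 0. Sums of 12 spermatogonial markers went the other way. They were 822 to 1030 CPM in cKO-labelled and 674 CPM in WT testes at P7, and 243 to 282 CPM against 191 to 235 CPM at P4. In such bulk tissue, fewer cells of a type and less RNA per cell cannot be told apart.

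Levels per kilobase of exon put the 10 genes in the same rough order in every group. Bax, the pore-forming effector of mitochondrial apoptosis, was the highest, at 133 ± 40.6 CPM per kilobase in cKO-labelled testes and 62.5 in the WT sample at P7. At P4 Bax had 104 ± 7.5 CPM per kilobase in cKO-labelled testes (SD, n = 3) and 81.5 ± 20.2 in WT testes (SD, n = 2). Mdm2 came next, at 34.2 and 47.3 CPM per kilobase at P7 and 32.5 and 38.1 at P4, in cKO-labelled and WT testes. In P4 cKO-labelled testes Mdm2, at 32.5 ± 4.27, did not differ beyond its spread from Phlda3, at 32.1 ± 1.55 CPM per kilobase (SD, n = 3). The middle of the order was held by Phlda3, Ccng1, Trp53inp1 and Aen, whose group means ran from 3.11 to 32.1 CPM per kilobase and whose order changed between groups. The low end was Bbc3, Cdkn1a, Perp and Eda2r, with group means from 0.683 to 3.72 CPM per kilobase. Cdkn1a, the gene most used as a readout of p53 activity, was thus among the 4 lowest, with 86 to 214 reads per library. Perp had 28 to 134 reads and Bbc3 46 to 293 reads per library. The values of these 3 genes and of Eda2r rest on the fewest reads of the 10.

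**Figure D1:**
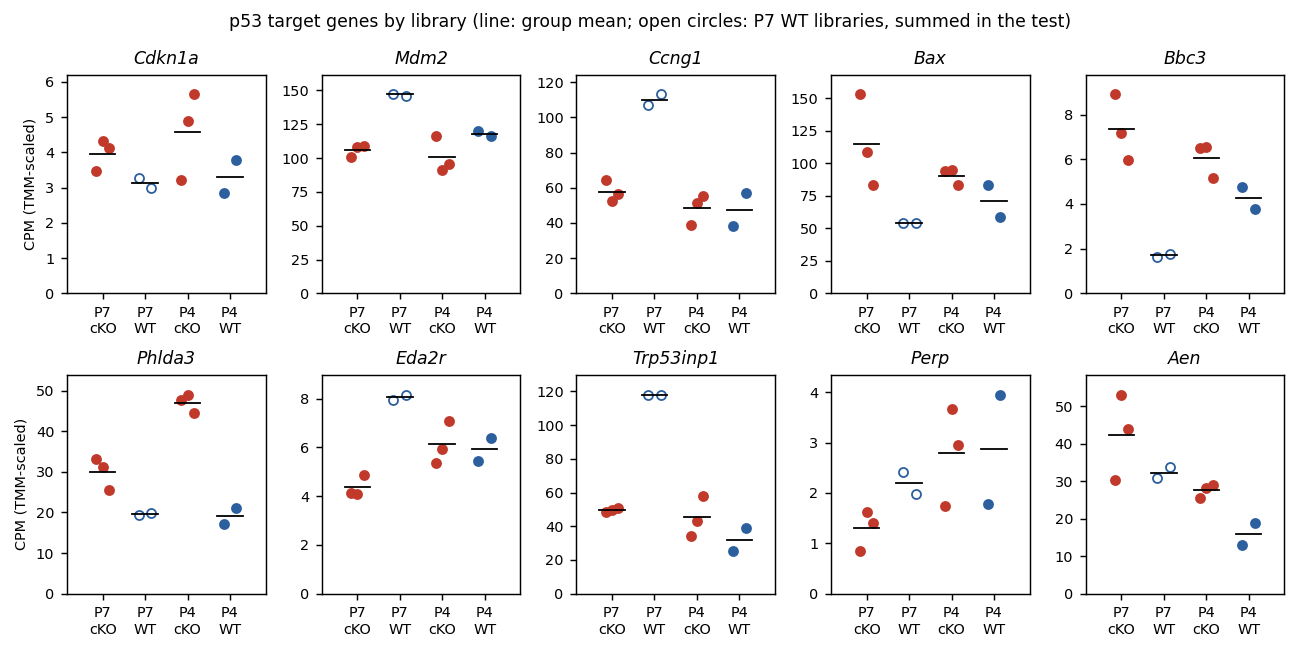
CPM (vertical axis, from 0) of each of the 10 genes in P7 cKO-labelled, P7 WT, P4 cKO-labelled and P4 WT testes; points are libraries (open for P7 WT, whose 2 libraries were summed in the test) and lines are group means. The P7 WT points of Trp53inp1, Ccng1 and Mdm2 lie above those of every other group, and the P4 cKO-labelled points of Phlda3 (44.5 to 49 CPM) lie above the rest.

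At P7, 4 of the 10 genes differed between genotypes: Bbc3 and Bax were higher in cKO-labelled testes, and Trp53inp1 and Ccng1 were lower. Over all genes tested at P7, 17.0% passed at an adjusted p under 0.05 (edgeR quasi-likelihood test, Benjamini-Hochberg over all tested genes), 7.26% as higher and 9.72% as lower. The median log2 fold change was -0.06 over the 10 genes and 0.08 over all tested genes. The CPM of cKO-labelled and WT libraries did not overlap for 9 of the 10 genes, all but Aen, and for 70.8% of all tested genes. With a single WT sample, groups that do not overlap are common.

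Bbc3 encodes Puma, a BH3-only protein that frees Bax to act. It had 8.9, 7.19 and 5.96 CPM in cKO-labelled testes and 1.7 CPM in WT testes at P7 (1.63 and 1.77 CPM in the 2 libraries). Each cKO-labelled library lay well above both WT libraries. The log2 fold change was 2.11 ± 0.38 (SE, adjusted p = 0.00891), the largest of the 10 at this stage. Bax had 153, 109 and 83.6 CPM in cKO-labelled testes and 54.3 CPM in WT testes. The 3 cKO-labelled libraries were all above WT but spread widely among themselves. Its log2 fold change was 1.08 ± 0.33 (adjusted p = 0.0431), and the adjusted p was 0.0819 without P7 cKO replicate 2 and 0.0612 to 0.0741 when any of the 3 P4 cKO-labelled libraries was left out of the joint fit.

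Trp53inp1 encodes a nuclear and autophagy protein that supports p53-driven arrest and death. It had 48.5, 49.6 and 50.7 CPM in cKO-labelled testes and 118 CPM in WT testes at P7. The cKO-labelled libraries were nearly equal and far below WT, with a log2 fold change of -1.25 ± 0.28 (adjusted p = 0.0156, and 0.0516 without P7 cKO replicate 2). Ccng1, cyclin G1, which recruits a phosphatase to Mdm2, had 64.2, 52.6 and 56.5 CPM in cKO-labelled testes and 110 CPM in WT testes. All 3 cKO-labelled libraries were below WT, and the log2 fold change was -0.93 ± 0.26 (adjusted p = 0.0312). That call ended without P4 cKO replicate 2, P7 cKO replicate 2 or P7 cKO replicate 3 (adjusted p = 0.0551, 0.0876 and 0.0582).

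The other 6 genes did not pass at P7. Eda2r, a receptor of the tumour necrosis factor family, had 4.13, 4.1 and 4.86 CPM in cKO-labelled testes and 8.05 CPM in WT testes (log2 fold change -0.88 ± 0.29, adjusted p = 0.0554). Phlda3, which blocks the membrane docking of the survival kinase Akt, had 33.2, 31.1 and 25.5 CPM against 19.6 CPM in WT testes (0.61 ± 0.24, adjusted p = 0.0997). Mdm2 had 101, 108 and 109 CPM in cKO-labelled testes and 147 CPM in WT testes (-0.47 ± 0.20, adjusted p = 0.125). All 3 genes had groups that did not overlap, yet missed the threshold. Cdkn1a, which encodes the cyclin-dependent kinase inhibitor p21, had 3.46, 4.32 and 4.11 CPM in cKO-labelled testes and 3.12 CPM in WT testes (0.35 ± 0.39, adjusted p = 0.564). Perp, a membrane protein of desmosomes and of apoptosis, had 0.851, 1.63 and 1.41 CPM in cKO-labelled testes and 2.19 CPM in WT testes (-0.74 ± 0.54, adjusted p = 0.357). Aen, a nuclease that degrades DNA in apoptosis, had 30.3, 53.1 and 43.9 CPM, on both sides of the 32.3 CPM in WT testes (0.39 ± 0.31, adjusted p = 0.408).

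At P4, 1 of the 10 genes differed between genotypes: Phlda3, which was higher in cKO-labelled testes. Over all genes tested at P4, 8.96% passed, 4.84% as higher and 4.13% as lower. The log2 fold change was positive for 8 of the 10 genes, with a median of 0.41, against 0.00 over all tested genes. With the offset for exon length and GC content, the median of the 10 genes was 0.2. The genotype groups did not overlap for 4 of the 10 genes and for 49.7% of all tested genes. Phlda3 had 47.6, 49.0 and 44.5 CPM in cKO-labelled testes and 17.1 and 21.2 CPM in WT testes. The lowest cKO-labelled library had more than double the level of the highest WT library, and the log2 fold change was 1.30 ± 0.19 (adjusted p = 0.0114). The log2 fold change was 1.26 without P4 cKO replicate 2 (adjusted p = 0.055), 1.32 without P4 cKO replicate 3 (0.0549) and 1.15 without P4 WT replicate 1 (0.186).

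Aen and Bbc3 had groups in the same direction at P4 without passing the test. Aen had 25.5, 28.3 and 29.1 CPM in cKO-labelled testes and 13 and 18.8 CPM in WT testes (log2 fold change 0.80 ± 0.25, adjusted p = 0.0663). Bbc3 had 6.51, 6.57 and 5.14 CPM in cKO-labelled testes and 4.77 and 3.77 CPM in WT testes (0.51 ± 0.27, adjusted p = 0.229). In both genes the cKO-labelled libraries lay above the WT libraries. Mdm2 had 116, 90.8 and 95.9 CPM in cKO-labelled testes and 120 and 116 CPM in WT testes (-0.23 ± 0.16, adjusted p = 0.364). It was the one gene whose cKO-labelled libraries were all the lower ones, in 1 case by a margin lost in rounding. In the remaining 6 genes the groups overlapped. Bax had 94.0, 94.6 and 83.0 CPM against 83.3 and 58.4 CPM in WT testes (0.35 ± 0.25, adjusted p = 0.354). Trp53inp1 had 34.3, 43.2 and 58.2 CPM against 25.3 and 38.8 CPM in WT testes (0.50 ± 0.24, adjusted p = 0.191). Its log2 fold change was above 0 at P4, while at P7 it was below 0. Cdkn1a had 3.21, 4.9 and 5.64 CPM against 2.85 and 3.77 CPM in WT testes (0.47 ± 0.31, adjusted p = 0.329). Ccng1, Eda2r and Perp had log2 fold changes between -0.05 and 0.05 at P4, with adjusted p-values of 0.913 to 0.95.

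**Figure D2:**
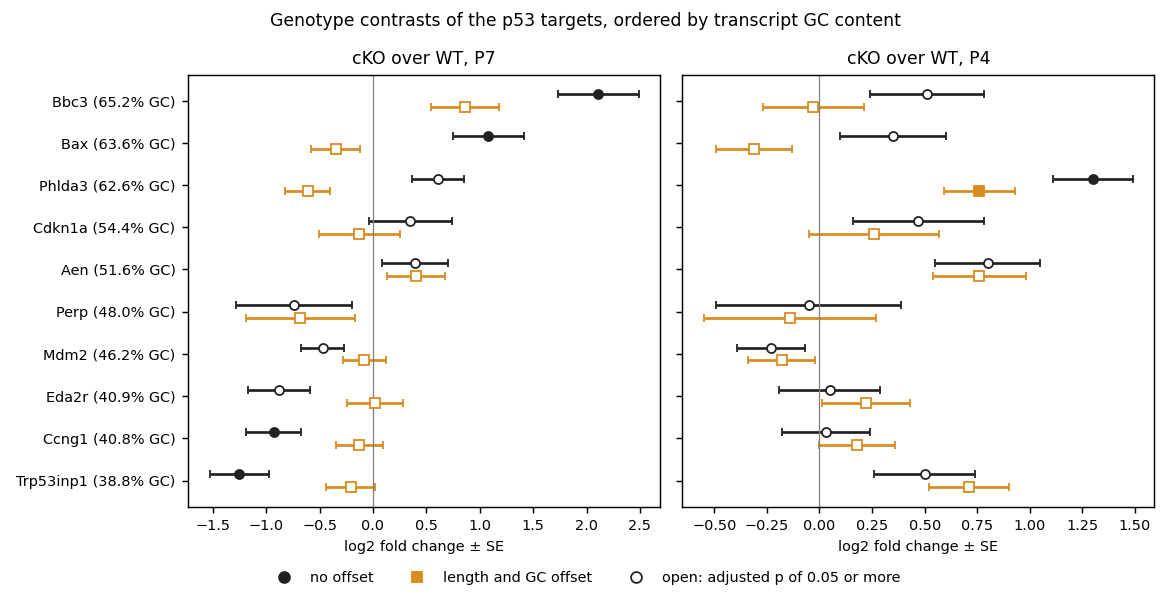
Log2 fold change of cKO-labelled over WT testes (horizontal axis) for each of the 10 genes at P7 and at P4, with and without the offset for exon length and GC content; bars are standard errors, filled symbols had an adjusted p under 0.05, and the axes of the panels differ in range. At P7 the values without the offset spread from -1.25 (Trp53inp1) to 2.11 (Bbc3), and with the offset no gene passed at P7; at P4 Phlda3 passed in both fits.

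The P7 values of the 10 genes followed the GC content of their transcripts. Bbc3, Bax and Phlda3 have GC contents of 65.2%, 63.6% and 62.6%, among the highest of all tested genes (percentiles 99.5, 99.1 and 98.5), and all 3 had positive log2 fold changes at P7. Trp53inp1, Ccng1 and Eda2r have 38.8%, 40.8% and 40.9% (percentiles 3.3, 7.9 and 8.4), and all 3 had negative ones. All tested genes showed the same slope: the median log2 fold change at P7 was 0.91 in the highest of 10 equal bins of GC content and -0.90 in the lowest bin. At P4 the low-GC genes Trp53inp1, Ccng1 and Eda2r all had positive values, as did the high-GC genes Bbc3, Bax and Phlda3. The medians of all genes at P4 were 0.26 in the highest of the 10 bins and -0.21 in the lowest.

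One sample stood apart in this respect. The median centred log2 CPM in the highest of 3 equal GC bins minus that in the lowest bin was 0.26, 0.35 and 0.12 in the P7 cKO-labelled samples and -0.97 in the P7 WT sample. It was 0.33, 0.19 and -0.01 in the P4 cKO-labelled samples and -0.04 and -0.24 in the P4 WT samples. An offset for exon length and GC content, fitted per sample, was therefore set beside the main fit, and it removes any true genotype difference that itself follows GC content as well. With it, 2 genes passed at P7 (0.0109% of those tested), neither of them 1 of the 10, and 602 (3.27%) passed at P4. At P7 the log2 fold change became 0.86 for Bbc3 (adjusted p = 0.268), -0.35 for Bax (0.519), -0.21 for Trp53inp1 (0.735) and -0.13 for Ccng1 (0.845). Phlda3 at P4 kept its call with the offset, at 0.76 (adjusted p = 0.0456), and Aen at P4 had 0.76 (adjusted p = 0.0645). Bax and Bbc3 at P4 turned to -0.31 and -0.03 with the offset, and neither passed. Whether the P7 genotype differences come from the genotype or from the GC slope of that WT sample cannot be told apart.

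**Figure D3:**
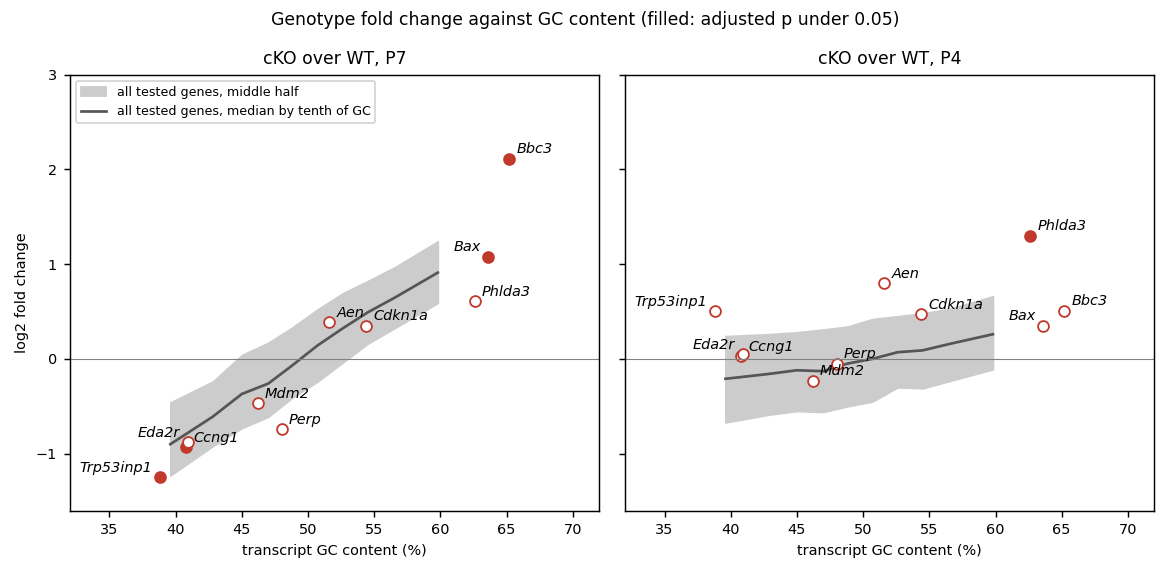
Log2 fold change of cKO-labelled over WT testes at P7 (left) and P4 (right) against transcript GC content in percent, with the 10 genes as points (filled where the adjusted p was under 0.05) and the median and middle 50% of all tested genes in 10 equal bins of GC content as a line and band. The line climbs from -0.90 to 0.91 at P7 and is flatter at P4. The band is drawn from 39.6% to 59.8% GC, so the points outside that range lie beyond its ends. At P4, Phlda3, Aen and Trp53inp1 have values above the middle 50% of the nearest bin. At P7, Bbc3 lies above it, and Perp and Trp53inp1 lie below it.

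Between P4 and P7, WT testes changed in 4 of the 10 genes: Trp53inp1, Ccng1 and Aen rose, and Bbc3 fell. Over all tested genes 21.8% passed in WT testes, 11.8% as higher and 9.97% as lower at P7. This contrast uses the same P7 WT sample as above. Its median log2 fold change over all tested genes was 0.64 in the lowest of 10 equal bins of GC content and -0.6 in the highest. The part of that slope in the 4 changes was not tested beyond the offset. The groups did not overlap for 7 of the 10 genes and for 85.4% of all tested genes. Trp53inp1, at 118 CPM at P7 against 25.3 and 38.8 CPM at P4, had a log2 fold change of 1.88 ± 0.30 (adjusted p = 0.00277) and passed under all 21 alternatives run, including the offset (adjusted p = 0.0122). Ccng1, at 110 CPM at P7 against 38.1 and 57.1 CPM at P4, had 1.21 ± 0.28 (adjusted p = 0.0118). Its call ended with the offset (0.61, adjusted p = 0.094) and without P4 WT replicate 1 (adjusted p = 0.0863). Aen, at 32.3 CPM at P7 against 13 and 18.8 CPM at P4, had 1.03 ± 0.32 (adjusted p = 0.0397). It passed with the offset (0.99, adjusted p = 0.0353), but not without P4 WT replicate 1 (0.199), nor without P7 WT replicate 2 (0.0559), P7 cKO replicate 3 (0.0539) or any of the 3 P4 cKO-labelled libraries (0.0537 to 0.0622). Bbc3, at 1.7 CPM at P7 against 4.77 and 3.77 CPM at P4, had -1.33 ± 0.38 (adjusted p = 0.0302). It did not pass with the offset (-0.60, adjusted p = 0.234) or without P4 WT replicate 1 (adjusted p = 0.129). The other 6 genes had log2 fold changes of -0.40 (Perp) to 0.44 (Eda2r) and did not pass. One of them, Phlda3, had 0.03 (adjusted p = 0.941) and passed with the offset (0.75, adjusted p = 0.0424).

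In cKO-labelled testes, 1 of the 10 genes changed between the stages: Phlda3 fell. It had 33.2, 31.1 and 25.5 CPM at P7 and 47.6, 49.0 and 44.5 CPM at P4, and the log2 fold change was -0.65 ± 0.16 (adjusted p = 0.0122, and -0.61 with adjusted p = 0.0111 under the offset). The 2 stages did not overlap. The call ended without P4 cKO replicate 2 (adjusted p = 0.0529). Over all tested genes 29.2% passed in cKO-labelled testes, 14.5% as higher and 14.7% as lower at P7. Aen, at 30.3, 53.1 and 43.9 CPM at P7 against 25.5, 28.3 and 29.1 CPM at P4, had 0.62 ± 0.22 (adjusted p = 0.0523) and passed with the offset (0.62, adjusted p = 0.0287). Perp had -1.09 ± 0.40 (adjusted p = 0.0612) and Eda2r had -0.49 ± 0.22 (adjusted p = 0.109), both with lower values in each P7 library than in any P4 library. Stages did not overlap for 4 of the 10 genes in cKO-labelled testes, and for 46.1% of all tested genes. The log2 fold changes of the other 6 genes lay between -0.21 (Cdkn1a) and 0.35 (Bax). The plot of stage changes sets the 2 genotypes side by side: Trp53inp1 had 0.13 in cKO-labelled and 1.88 in WT testes, Ccng1 0.25 and 1.21, and Bbc3 0.27 and -1.33.

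**Figure D4:**
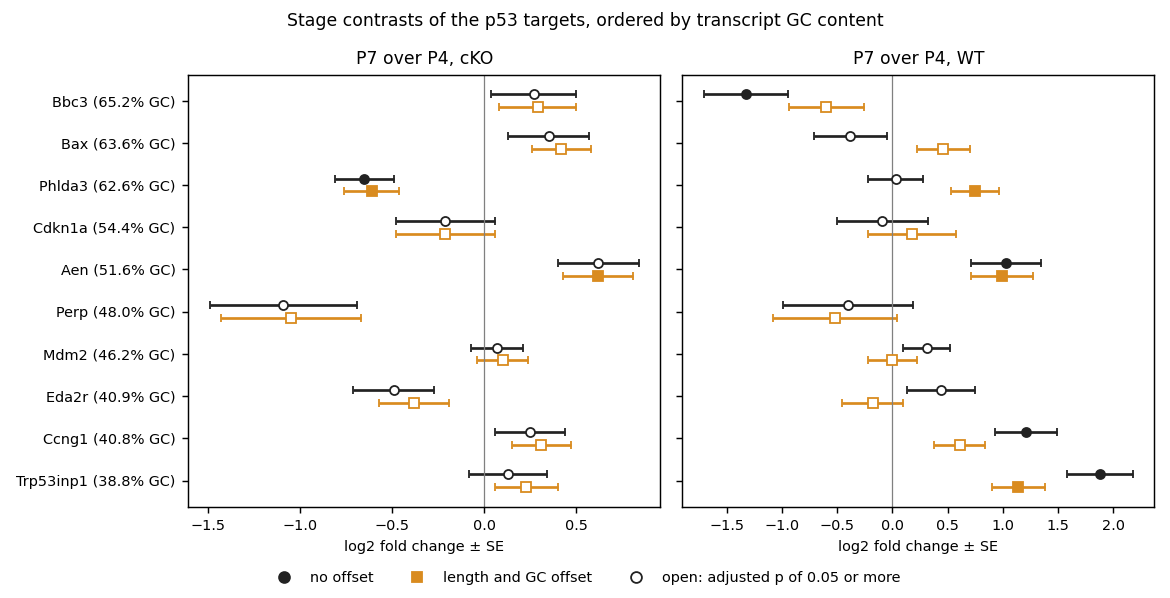
Log2 fold change of P7 over P4 (horizontal axis) for each of the 10 genes in cKO-labelled and in WT testes, with and without the length and GC offset; bars are standard errors, filled symbols had an adjusted p under 0.05, and the axes of the panels differ in range. Without the offset, Trp53inp1, Ccng1 and Bbc3 lie at 0.13, 0.25 and 0.27 in cKO-labelled testes and at 1.88, 1.21 and -1.33 in WT testes, while the interaction test passed for none of the 10.

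The difference between the genotype effects at P7 and at P4 was tested directly as an interaction, and no gene of the 18419 passed (0%; edgeR). At an unadjusted p under 0.05, edgeR had 4619 genes, and with adjustment limma-voom called 0 and DESeq2 called 1665. Trp53inp1 had the largest interaction of the 10, at -1.75 ± 0.37 (adjusted p = 0.0626), and Bbc3 had 1.6 ± 0.45 (adjusted p = 0.0832). DESeq2 gave adjusted p-values of 0.00398 for Trp53inp1 and 0.0181 for Bbc3. Without P7 cKO replicate 1 the adjusted p was 0.0197 for Trp53inp1 and 0.0489 for Bbc3, and without P4 WT replicate 2 it was 0.0411 for Trp53inp1. Of the 20 alternatives run for the interaction, Trp53inp1 passed in 6, with values from -2.09 to -0.92. Bbc3 passed in 4, with values from 0.89 to 1.87. For both genes these include the fit of 10 separate libraries and the replicate block. Both of those settings count the 2 nearly equal P7 WT libraries as separate samples. With the length and GC offset 0 of the 10 genes passed. Over all tested genes the median interaction was -0.62 in the lowest of 10 equal bins of GC content and 0.66 in the highest. The part of this GC slope in the 2 values was not tested beyond the offset. Ccng1 had -0.96 (adjusted p = 0.121), Eda2r -0.93 (0.161), Phlda3 -0.68 (0.176) and Bax 0.73 (0.266).

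The genes that control p53 were read beside its targets. Trp53 had 135, 127 and 135 CPM in cKO-labelled testes and 98 CPM in WT testes at P7, and 125, 132 and 99.9 CPM against 107 and 127 CPM at P4. It did not pass at either stage (log2 fold change 0.43 ± 0.22, adjusted p = 0.196 at P7, and 0.02 ± 0.17, adjusted p = 0.942 at P4). The p53 protein is known to be set mainly by its turnover, which these data do not measure. Mdm4, the partner of Mdm2, had 464, 284 and 304 CPM in cKO-labelled testes and 701 CPM in WT testes at P7 (-1 ± 0.28, adjusted p = 0.0341), and -0.21 with the offset (adjusted p = 0.829). It rose between the stages in both genotypes, by 0.97 ± 0.21 in cKO-labelled testes (adjusted p = 0.00582) and by 1.51 ± 0.30 in WT testes (adjusted p = 0.00688; with the offset 1.01, adjusted p = 0.0675).

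Of 16 genes for p53 and its upstream regulators, 2 were higher and 2 lower in cKO-labelled testes at P7 (25% of the list, against 17.0% of all tested genes), or 0 and 1 without P7 cKO replicate 2. Chek1, a kinase of the replication checkpoint, was lower (-1.05, adjusted p = 0.00987), as was Mdm4. Cdkn2a, whose locus encodes both a CDK inhibitor and the Mdm2 inhibitor Arf, was higher (1.62, adjusted p = 0.0251), and so was Rpl11, a ribosomal protein that binds Mdm2 (0.74, adjusted p = 0.0483). At P4, 2 of the 16 were higher and 3 lower (31.2%, against 8.96% of all tested genes), and 0 passed without P4 cKO replicate 2, P4 cKO replicate 3 or P4 WT replicate 1. The ribosomal protein genes Rpl23 (0.96, adjusted p = 0.0228) and Rpl5 (1.05, adjusted p = 0.0297), both known Mdm2 binders, were higher. The checkpoint kinase genes Chek2 (-1.08, adjusted p = 0.0254), Chek1 (-0.71, adjusted p = 0.0292) and Atr (-0.79, adjusted p = 0.0402) were lower. Ribosomal protein genes have many near-identical copies in the genome, so their counts are uncertain. With the offset, 0 of the 16 passed at P7, and 2 higher and 0 lower passed at P4.

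Among 32 other p53 targets, 2 were higher and 2 lower at P7 (12.5%, below the 17.0% of all tested genes), with a median log2 fold change of -0.15; 1 passed without P4 cKO replicate 2 and 0 without P7 cKO replicate 2. Sfn, a 14-3-3 protein of cell-cycle arrest (1.39, adjusted p = 0.0154), and Gdf15, a secreted stress factor (1.51, adjusted p = 0.0341), were higher. The DNA polymerase gene Polk (-0.90, adjusted p = 0.0331) and the ribonucleotide reductase subunit Rrm2b (-1.43, adjusted p = 0.0422) were lower. At P4, Pltp, a phospholipid transfer protein (1.23, adjusted p = 0.0224), and Rprm, a G2 arrest factor (1.38, adjusted p = 0.0454), were higher, and Ddb2, a sensor of ultraviolet damage, was lower (-0.96, adjusted p = 0.0301). These 3 were 9.38% of the list, near the 8.96% of all tested genes, and none passed without P4 cKO replicate 2, P4 cKO replicate 3 or P4 WT replicate 1. The median at P4 was 0.08. No gene of this list passed at both stages, a difference that was not tested as such, and with the offset 0 passed at P7 and 2, both lower, at P4.

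Among 14 relatives of Bax and Bbc3 in the BCL-2 family, which sets the threshold for Bax to act, 5 were higher and 0 lower in cKO-labelled testes at P4; 13 had positive log2 fold changes and the median was 0.71. The 5 were 35.7% of the list, against 8.96% of all tested genes, but 0 passed without P4 cKO replicate 2, P4 cKO replicate 3 or P4 WT replicate 1. They included the BH3-only genes Bad (1.16, adjusted p = 0.0218) and Bmf (0.98, adjusted p = 0.0209), the effector-like Bok (0.73, adjusted p = 0.034), and the survival genes Bcl2l1 (0.94, adjusted p = 0.0262) and Bcl2l2 (0.97, adjusted p = 0.0346). Genes for death and for survival thus both stood among the 5. At P7, Bok (1.25, adjusted p = 0.0102), Bad (1.21, adjusted p = 0.026) and Bmf (0.89, adjusted p = 0.0354) were higher and none was lower (21.4% of the list, against 17.0% of all tested genes), with a median of 0.13; without P7 cKO replicate 2, 1 passed. With the offset, 0 passed at P7 and 1 at P4. The Sertoli cell marker sums given above were also higher in cKO-labelled testes at P4. So were those of 8 macrophage markers, at 88.6 to 146 CPM in cKO-labelled and 84.5 to 84.7 CPM in WT testes, of 7 endothelial markers, at 340 to 372 CPM and 280 to 284 CPM, and of 8 epithelial junction markers, at 219 to 254 CPM and 141 to 186 CPM. Sums of 10 peritubular and stromal markers overlapped, at 5640 to 7520 CPM against 4830 to 5670 CPM. Of these 10 genes, 7 had positive log2 fold changes at P4, with a median of 0.59, and 3 were higher and 0 lower. Sums of 8 Leydig cell markers also overlapped, at 1210 to 1410 CPM against 1150 to 1390 CPM. Yet 7 of the 8 Leydig genes had positive log2 fold changes, with a median of 1.26, and 3 were higher (Insl3 3.65, adjusted p = 0.0331; Fdx1 1.36, adjusted p = 0.0168; Star 1.24, adjusted p = 0.0224). The remaining Leydig gene, Hsd17b3, had the highest mean of that list in both P4 groups, at 456 CPM in cKO-labelled and 736 CPM in WT testes. In the epithelial list 1 gene was at 0 in the P4 cKO-labelled group, and in the others none was at 0 in either P4 group. The part of these cell types in the BCL-2 family values and in Phlda3 was not tested.

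Cell-cycle genes of the pathway were read from 2 lists. Of 7 CDK inhibitor genes, 1 was higher (Cdkn2a, as above) and 1 lower (Cdkn1b, encoding p27, -0.91, adjusted p = 0.0496) at P7, which is 28.6% against 17.0% of all tested genes, and 0 passed at P4. The Cdkn1b call held in 8 of 21 alternatives and ended on leaving out any 1 of 8 of the 10 libraries; without P7 cKO replicate 2 neither gene passed. Of 18 cell-cycle genes that p53 represses through p21, Cdc20 was higher (0.93, adjusted p = 0.0458) and Bub1 lower (-0.69, adjusted p = 0.033) at P7, and Bub1 was lower (-0.58, adjusted p = 0.0414) at P4. These were 11.1% and 5.56% of the list, below the shares of all tested genes (17.0% and 8.96%). Cdc20 at P7 held in 11 of 21 alternatives, and 0 of the list passed at P7 without P4 cKO replicate 2 or P7 cKO replicate 2; at P4 Bub1 held in 13 of 21, and its call ended without any 1 of the 5 P4 libraries, P7 cKO replicate 2 or P7 cKO replicate 3. Both encode proteins of the spindle checkpoint pathway. With the offset, 0 of either list passed at P7, while at P4 1 CDK inhibitor passed as higher and 1 as lower, and 1 cell-cycle gene as lower.

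The wider pathway had calls between the stages in both genotypes. Of the 32 other targets, 3 rose and 12 fell in cKO-labelled testes, and 5 rose and 9 fell in WT testes. That is 46.9% and 43.8% of the list, against 29.2% and 21.8% of all tested genes. Without P4 WT replicate 1, fewer genes passed in WT testes, both in this list and over all tested genes. The same held for the regulators and the BCL-2 family below. With the offset, 5 rose and 11 fell in cKO-labelled testes, and 3 rose and 5 fell in WT testes. The shares of all tested genes that passed with the offset were 31.6% and 16.5%. Gdf15 fell in both, with log2 fold changes of -1.58 in cKO-labelled testes (adjusted p = 0.0016) and -2.75 in WT testes (adjusted p = 0.00329). The kinase gene Plk2 also fell, with -1.30 in cKO-labelled testes (adjusted p = 0.000201) and -1.12 in WT testes (adjusted p = 0.00996). Of the regulators, 4 rose and 3 fell in cKO-labelled testes, and 3 rose and 1 fell in WT testes (43.8% and 25% of the list). Atm, the kinase that signals DNA breaks to p53, rose by 1.26 in cKO-labelled testes (adjusted p = 8.65e-05) and by 1.27 in WT testes (adjusted p = 0.00183). Cdkn2a rose by 2.60 in cKO-labelled (adjusted p = 0.000109) and by 1.68 in WT testes (adjusted p = 0.014). Of the 14 BCL-2 family genes, 3 rose and 2 fell in cKO-labelled testes, and 4 rose and 1 fell in WT testes (35.7% of the list in each). With the offset, 4 rose and 3 fell in cKO-labelled testes, and 6 rose and 0 fell in WT testes. The BH3-only gene Hrk rose by 2.23 in cKO-labelled (adjusted p = 0.000629) and by 3.31 in WT testes (adjusted p = 0.00157). Bok fell, with -0.52 in cKO-labelled (adjusted p = 0.0282) and -1.05 in WT testes (adjusted p = 0.0144). The fall of Bok in WT testes did not pass with the offset. In the same libraries the pan-germ-cell marker sums were 1280 to 1590 CPM at P7 against 275 to 284 CPM at P4 in cKO-labelled testes, and 2220 CPM against 405 to 489 CPM in WT testes, and the part of germ cell number in these stage changes was not tested.

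The genes most like each of the 6 members that passed a test were found by the mean absolute difference of centred log2 CPM over the 9 samples. For Trp53inp1 they were Ammecr1, Mospd2 and Fam199x (0.083 to 0.09), with GC contents of 38.3% to 40.9% beside its own 38.8%. For Ccng1 they were Cacybp, Lrrc40 and Stk39 (0.066 to 0.072; GC contents 40.2% to 49.2%, its own 40.8%), and for Bax they were B3gat3, Ubxn11 and Bola1 (0.071 to 0.083; 56.6% to 61.6%, its own 63.6%). Bbc3 was nearest to Ccdc9, Agap3 and Rex1bd (0.127 to 0.133; 53.4% to 61.2%, its own 65.2%). Phlda3, at 62.6%, was nearest to genes of lower GC content, Rilpl2, Tmed9 and Ndufa1 (0.125 to 0.137; 47.5% to 48.4%). Aen was nearest to Ruvbl1, Rcan3 and Hyou1 (0.093 to 0.109; 50.8% to 52.5%, its own 51.6%). None of these 18 genes is one of the 10, so no member was among the 3 nearest genes of another.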

How the data were processed

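The authors deposited a table of raw read counts per gene (whole numbers, per the file headers) with GRCm38/mm10 gene positions and summed exon length. Tools named in the submitters' processing notes are STAR 2.7.11a, featureCounts of Subread 2.0.6, Trim Galore 0.6.10, SAMtools 1.6, FastQC 0.12.1 and MultiQC 1.14; the strand setting is not given in the sources used here. From 67.8% to 80.0% of counts under 50 were even, so both mates of a pair seem to have been counted.

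Genes passing filterByExpr were fitted in edgeR 4.0.16 (R 4.3.3, TMM factors, quasi-likelihood F test) over 9 samples with 5 residual degrees of freedom and a common biological coefficient of variation of 0.228, after a test on simulated data. Adjusted p-values are Benjamini-Hochberg over 18419 genes, called under 0.05; SE is the log2 fold change over the root of F. GC content came from the longest GENCODE M21 transcript per symbol (97.7% of tested genes). Alternatives, each changing 1 choice (the block also keeps the 10 libraries separate), were RLE factors, library totals, 2 filters, DESeq2 1.42.0, limma-voom (limma 3.58.1), the compared groups alone, 10 separate libraries, a replicate block, 2 offsets and leaving out each library. In lists of other genes, up to 4 per comparison were named by smallest p, and a few more after their values were seen. The members and lists were chosen with earlier results of these data known.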

Additional observations from a re-analysis of the deposited data

How the results depend on the processing

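Over 10 libraries taken as separate samples, 2895 genes were called at P4, 6905 at P7, 7279 between stages in WT and 3105 for the interaction. The replicate block, also on 10 separate libraries, gave 2732, 7438, 7812 and 4311 for the same 4 results. It changed no other count by over 1.5 times. The departures of same-numbered samples from their group means correlated by -0.16 to 0.31. Differently numbered samples were not compared, and the P7 WT libraries differ by little more than sampling noise. Whether the numbers are a pairing is therefore not settled. DESeq2 called 3008 at P4 and 1665 for the interaction. The compared groups alone gave 3229 at P4 and 0 at P7. For the interaction, library totals gave 3, no filter 431, the length offset 1 and the length and GC offset 1. That offset gave 602 at P4 and 2 at P7. Leaving out single libraries gave 2 to 4157 genes at P4 (2 without P4 WT replicate 1, 13 and 11 without P4 cKO replicates 2 and 3), 961 to 4921 at P7 (961 without P7 cKO replicate 2), 3520 to 5569 between stages in cKO-labelled testes, 1187 to 6315 in WT testes (1187 without P4 WT replicate 1) and 0 to 1455 for the interaction. Library totals changed the split of higher and lower calls to 528 and 1544 at P4 (main 891 and 760), 1744 and 1402 at P7 (1338 and 1791), 3907 and 1818 between stages in cKO-labelled testes (2663 and 2709) and 1871 and 2105 in WT testes (2179 and 1837), with medians of all genes of -0.16, 0.19, 0.18 and -0.11, and 0.33 for the interaction. The causes were not tested.

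Signs turned in 49 alternative values, each with an adjusted p over 0.05. With the length and GC offset these were, at P7, Cdkn1a -0.13, Bax -0.35, Phlda3 -0.61, Eda2r 0.02 and Bub1 0.14; at P4, Bax -0.31, Bbc3 -0.03 and Trp53 -0.20; between stages in WT, Cdkn1a 0.18, Mdm2 0.00, Bax 0.46 and Eda2r -0.18; and for the interaction, Mdm2 0.10, Bax -0.05 and Mdm4 0.10. With the length offset, Bax had -0.01 and Trp53 -0.15 at P4. With library totals, Ccng1 had -0.13, Eda2r -0.11 and Trp53 -0.13 at P4, Phlda3 -0.05 between stages in WT, and Cdkn1a 0.15 and Mdm2 0.03 for the interaction. The stricter filter gave Ccng1 -0.01 and Trp53 -0.02 at P4 and Phlda3 -0.03 between stages in WT. RLE factors and DESeq2 gave Trp53 0.00 at P4. The replicate block gave Ccng1 -0.01 and Eda2r -0.06 at P4. Leaving out single libraries, the ranges across 0 at P4 were -0.23 to 0.35 for Ccng1, -0.08 to 0.17 for Eda2r, -0.51 to 0.64 for Perp and -0.10 to 0.15 for Trp53. Lsm7 ran from -0.53 to 0.10 at P7. Between stages, Trp53inp1 in cKO-labelled testes ran from -0.03 to 0.36, and in WT Cdkn1a from -0.28 to 0.13, Phlda3 from -0.13 to 0.20, Perp from -0.86 to 0.29 and Lsm7 from -0.12 to 0.36. The interaction of Cdkn1a ran from -0.34 to 0.07.

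Of the calls in the 10 genes, Bbc3, Trp53inp1, Ccng1 and Bax at P7 also ended with the compared groups alone (adjusted p = 0.0696, 0.0663, 0.0743 and 0.151), and Ccng1 and Bax at P7 and Aen between stages in WT with the length offset (0.0527, 0.177 and 0.0537). Phlda3 between stages in cKO-labelled testes ended with library totals (0.0503). Aen at P4 passed in 5 of 21 alternatives, among them the 10 separate libraries and the replicate block, which keep the P7 WT libraries apart. Depth limits Perp, Bbc3 and Cdkn1a most. The single P7 WT sample limits each P7 genotype result, each WT stage result and each interaction.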
